A study of Mus musculus with 12 samples.

Results

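The genes described here handle iron in the liver: the transferrin receptor gene Tfrc with Trf, Slc11a2, Slc40a1, Ireb2, Hamp, Hamp2, Tfr2, Hfe and Hjv (also called Hfe2). They were picked by symbol, which gave 10 of the 19938 genes named on the array, and each had a single probe. The list was built around Tfrc because its values in the mTR knock-outs did not overlap those of their wild types, so its values in that comparison are given as a description with no test. All 10 passed the filter on dim probes. The study asked how the loss of either part of telomerase affects gene expression in the liver. RNA was taken from the livers of 12 untreated male C57BL/6J mice, 1 array per mouse. There were 4 groups of 3 mice: mTERT KO with its mTERT WT, and mTR KO with its mTR WT. mTERT is the protein subunit of telomerase and mTR its RNA template, and the knock-outs (KO) were of the first generation (G1), before the telomere shortening that builds up over later generations. The labels state that mice were age-matched, without an age, and give neither the design of the alleles nor the generation of the wild types (WT). WT and KO mice of a set were littermates, and the number in a sample's label was read as its set, which makes 6 litters, 3 per line.

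Hepatocytes take up iron bound to transferrin, the product of Trf, through transferrin receptor 1 (Tfrc), and iron leaves the endosome through the divalent metal transporter DMT1 (Slc11a2). When iron is scarce, the iron regulatory proteins, of which Ireb2 encodes IRP2, bind the Tfrc messenger and protect it from decay. Systemic iron is set by hepcidin (Hamp), a peptide secreted by hepatocytes that brings about the degradation of ferroportin (Slc40a1), the iron exporter. Hepcidin transcription is raised through BMP and SMAD signalling, with hemojuvelin (Hjv), HFE (Hfe) and transferrin receptor 2 (Tfr2) as parts of the sensing machinery, and through IL-6 and STAT3 in inflammation. Mice carry a second, closely related gene, Hamp2, whose role in iron control is less clear.

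Values are log2 intensities, and a difference of 1 stands for a 2-fold change. An array measures the relative amount of RNA in the whole tissue, so fewer cells of a type and less RNA per cell cannot be told apart. Each probe has its own brightness, so levels were compared between arrays and not between genes. Hepatocyte markers averaged 12.49 to 12.66 on every array, as the tissue label says. Tert read 3.95, 4.07 and 4.15 in mTERT KO, all under the background level of 4.34 taken from olfactory receptor genes. It read 4.13, 4.78 and 4.83 in mTERT WT, so 1 WT array lay within the KO range. Terc, the gene of mTR, read 3.87 to 4.33 in mTR KO and 4.12 to 4.24 in mTR WT, at background in both, and so does not check that deletion. Acinar genes of the pancreas, an organ next to the liver, averaged 7.20 to 11.55 on 5 arrays (mTERT KO 1, mTERT WT 1, mTERT WT 2, mTR KO 1 and mTR WT 2) and 3.81 to 4.03 on the other 7. Skeletal muscle genes averaged 7.19 on mTERT WT 1 and 6.74 on mTERT WT 3, against 3.85 to 4.65 elsewhere. Values without the 5 arrays are given where a result changes.

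Tfrc was brightest in the mTR knock-outs. The mTR KO arrays of sets 1, 2 and 3 read 7.50, 7.82 and 7.77, and the mTR WT arrays read 7.05, 7.18 and 7.09. The lowest KO array lay 0.31 above the highest WT array. In the mTERT line the order of the means was the opposite: KO arrays read 6.59, 7.26 and 7.00, and WT arrays read 7.44, 7.07 and 7.30. These ranges overlapped, and the lowest of all 12 values was mTERT KO 1. Group means ± SD (n = 3) were 7.70 ± 0.174 in mTR KO, 7.27 ± 0.189 in mTERT WT, 7.11 ± 0.0695 in mTR WT and 6.95 ± 0.337 in mTERT KO. Only the step from mTR KO to mTERT WT, 0.43, was larger than the pooled SD of 0.21, and neighbours further down this order lay within it.

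Between littermates, Tfrc was higher in the mTR KO by 0.45, 0.63 and 0.68 in litters 1, 2 and 3. The mTERT KO differed from its littermate by -0.85, 0.20 and -0.30, with no common direction. The fitted mTR difference was 0.59 (SE 0.164, 95% interval 0.23 to 0.95), a 1.50-fold higher level, and lay between 0.53 and 0.69 when any 1 array was left out. The mTERT difference, which did not serve to choose the gene, was -0.32 (SE 0.164, interval -0.68 to 0.04) and did not pass the test (limma with Benjamini-Hochberg adjustment over 20197 probes, adjusted p = 1.00). It fell to -0.05 with sets 2 and 3 alone, so most of it came from mTERT KO 1 and mTERT WT 1. Both of those arrays carried pancreas transcripts, and without the 5 such arrays the mTERT difference was -0.17, with mTERT WT 3 as the only WT array left, and the mTR difference was 0.73, with 2 arrays left in each group. The mTR effect exceeded the mTERT effect by 0.90 (SE 0.232), again a description.

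Cells that make much transferrin receptor for other reasons are red cell precursors and dividing cells. Erythroid markers, of which 9 of 14 were matched, averaged 4.47 to 4.53 in mTR KO and 4.47 to 4.49 in mTR WT. Among them 6 lay below background, and the brightest was Alas2. Proliferation markers, 13 of 14 matched and 6 of these below background, averaged 4.58 to 4.66 in mTR KO and 4.60 to 4.69 in mTR WT. The 14 matched Kupffer cell and macrophage markers averaged 6.86 to 6.94 in mTR KO, inside the 6.71 to 7.01 of mTR WT.

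**Figure D1:**
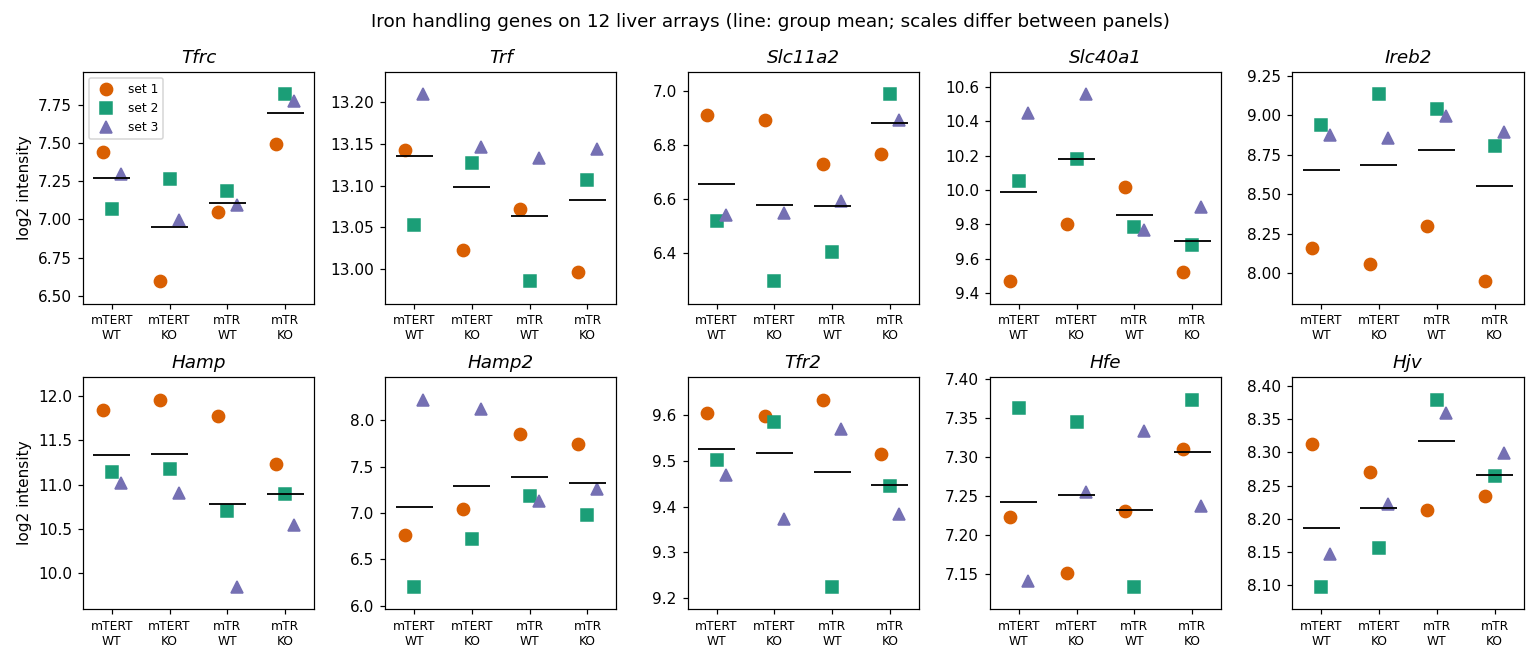
Log2 intensity (y axis) of each of the 10 genes on the 12 arrays, by group (x axis), with 1 point per array, colour and shape for the set number, and a line at the group mean. Tfrc in mTR KO, at 7.50 to 7.82, lies above every other array, while Hamp and Ireb2 follow the set number in all 4 groups.

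Slc11a2, which moves iron out of the endosome after uptake by Tfrc, was the other gene whose mTR groups did not overlap. The mTR KO mice gave 6.77, 6.99 and 6.89 against 6.73, 6.41 and 6.59 for WT, a gap of 0.04 between the nearest arrays. All the other genes had overlapping mTR groups. For Hjv the KO range, 8.23 to 8.30, lay wholly inside the WT range of 8.21 to 8.38. Hfe spanned 7.24 to 7.37 among the knock-outs, most of it inside the WT span of 7.13 to 7.33. For Slc11a2 the mTERT KO mice gave 6.89, 6.30 and 6.55 against 6.91, 6.52 and 6.54 for WT. These ranges overlapped, with mTERT KO 2 below every WT array. The mTR difference was 0.31 (SE 0.162, interval -0.05 to 0.66), which did not pass the test (limma adjusted p = 1.00, unadjusted p = 0.0829). The mTERT difference was -0.08 (SE 0.162), and the mTR effect exceeded it by 0.39 (SE 0.229), without passing either. Littermates differed by 0.04, 0.58 and 0.30 in mTR litters 1, 2 and 3, so litter 1 showed nearly no difference. Over all probes tested, 1.84% had mTR KO wholly above mTR WT, against 2 of these 10 genes, of which Tfrc was chosen for it.

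None of the 10 genes passed the test for KO against WT in mTERT, and none of the 9 other than Tfrc did so in mTR. Over all probes 0% passed in either line (limma adjusted p). At an unadjusted p under 0.05 there were 283 probes, 1.4%, in the mTERT comparison and 195, 0.965%, in the mTR comparison. None of the 10 was among the first, and of the 9 other than Tfrc, for which no test is given, none was among the second. In mTERT no gene of the 10 had groups apart, where 4.33% of all probes had. The median difference of the 10 genes was 0.01 in mTERT and -0.00 in mTR, beside 0.01 and -0.01 over all probes tested. In mTERT the 95% interval lay within 1 log2 unit of 0 for 9 of the 10 genes, and in mTR for 8. The exceptions were Hamp2 in both lines and Hamp in mTR, for which a 2-fold change lies inside the interval.

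**Figure D2:**
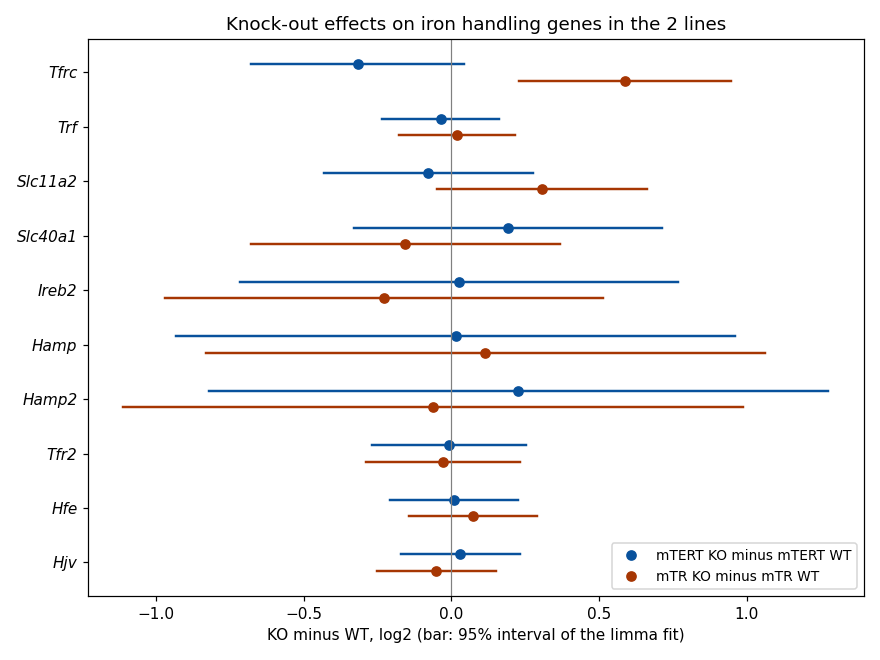
KO minus WT difference (x axis, log2) for each of the 10 genes (y axis) in the mTERT line (blue) and the mTR line (brown), with points at the fitted difference and bars for its 95% interval. The bar of Tfrc in mTR, from 0.23 to 0.95, describes the values for which that gene was chosen and is no test. The other bars all span 0, and the bars of Hamp, Hamp2 and Ireb2 are the widest.

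The ligand and the sensors lay close to their WT values. Trf, which encodes the carrier transferrin, gave 13.02, 13.13 and 13.15 for the mTERT KO mice beside 13.14, 13.05 and 13.21 for WT. The mTR KO mice gave 13.00, 13.11 and 13.14, beside 13.07, 12.99 and 13.13 for WT. The 12 arrays spanned 0.22, the narrowest range of the 10 genes. The KO differences of Trf were -0.04 (SE 0.0899) and 0.02 (SE 0.0899) in mTERT and mTR.

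Tfr2, the hepatocyte receptor that senses iron-loaded transferrin, gave 9.60, 9.58 and 9.37 for the mTERT KO mice beside 9.60, 9.50 and 9.47 for WT. The mTR KO mice gave 9.52, 9.44 and 9.38, beside 9.63, 9.22 and 9.57 for WT, where mTR WT 2 was the lowest of all. Hfe, whose product binds transferrin receptor 1 and is mutated in the commonest form of hereditary hemochromatosis, lay between 7.13 and 7.37 on all arrays. Its KO differences were 0.01 (interval -0.21 to 0.22) in mTERT and 0.07 (interval -0.14 to 0.29) in mTR. Hjv, the BMP co-receptor hemojuvelin, lay between 8.10 and 8.38, with differences of 0.03 (interval -0.17 to 0.23) and -0.05 (interval -0.25 to 0.15). For Tfr2 the intervals were -0.27 to 0.25 and -0.29 to 0.23. None of these differences exceeded the spread between mice.

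Hamp and Hamp2 are closely related genes that lie near each other on chromosome 7. The 250 bases before each start are shown because the probes of Hamp and Hamp2 varied between litters in different ways. Both come from RefSeq, build GRCm38.p6, minus strand, written 5′ to 3′, with Hamp at chr7:30944030-30944279 and Hamp2 at chr7:30924182-30924431.
Hamp: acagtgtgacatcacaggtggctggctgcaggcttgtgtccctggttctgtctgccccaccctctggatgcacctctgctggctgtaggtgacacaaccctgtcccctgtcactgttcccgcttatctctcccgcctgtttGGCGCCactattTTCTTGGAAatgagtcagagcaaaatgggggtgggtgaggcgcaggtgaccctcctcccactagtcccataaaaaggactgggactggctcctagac
Hamp2: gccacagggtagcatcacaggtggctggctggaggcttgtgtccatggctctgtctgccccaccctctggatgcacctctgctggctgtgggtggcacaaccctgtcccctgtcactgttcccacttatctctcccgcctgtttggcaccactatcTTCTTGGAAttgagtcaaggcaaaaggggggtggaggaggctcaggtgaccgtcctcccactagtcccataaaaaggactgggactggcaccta
Capitals mark matches to the motif GGCGCC, the core of the BMP response element, and to TTCNNNGAA, the form bound by STAT factors, searched on both strands. Both windows held 1 match to TTCNNNGAA. Hamp held 1 match to GGCGCC, at bases 142 to 147 of the printed window, and Hamp2 held none. At the aligned place the bases differ by G145A, with Hamp's base first and the position counted from the 5′ end of its printed window. In a global alignment 227 of 247 paired bases were identical, 91.9%. Over all 32851 RefSeq windows of this length, 9.59% held GGCGCC and 7.02% held TTCNNNGAA. Windows were found for 6 of the 10 genes. A Tfrc window also held 1 match to GGCGCC, and those of Tfr2, Hfe and Ireb2 held none. These matches describe the letters of the windows, and no binding was measured.

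Hamp varied more by set number than by genotype. The KO mice of the mTERT line read 11.96, 11.18 and 10.91 for sets 1, 2 and 3, and their WT littermates 11.85, 11.14 and 11.01. The mTR KO mice read 11.23, 10.89 and 10.54, and their WT littermates 11.77, 10.71 and 9.85. In each of the 4 groups set 1 was highest. The 4 arrays of set 1 lay between 11.23 and 11.96 and the other 8 between 9.85 and 11.18, with no overlap. Over all probes, 23% had set 1 apart from the other sets, 10.4% above and 12.6% below them. The set 1 contrast was chosen because earlier results of these data showed that set 1 stands apart. Its p-values, here and below, are therefore descriptive. Set 1 was higher by 0.93 (SE 0.169, interval 0.56 to 1.29), a 1.90-fold level, with a limma adjusted p of 0.00122. With the litter as a random block the adjusted p was 0.00181. The KO differences were 0.01 (SE 0.432) in mTERT and 0.12 (SE 0.432) in mTR, and mTR WT was 0.56 lower than mTERT WT (difference -0.56, SE 0.432), all of them without passing the test.

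Ireb2, the gene of IRP2, went the other way. Sets 1, 2 and 3 of the mTERT KO gave 8.06, 9.13 and 8.86, beside 8.16, 8.94 and 8.87 for the WT littermates. Those of the mTR KO gave 7.95, 8.81 and 8.89, beside 8.30, 9.04 and 8.99. Set 1 spanned 7.95 to 8.30 and the other arrays 8.81 to 9.13, again with no overlap. The difference was -0.82 (SE 0.0687, interval -0.97 to -0.67, limma adjusted p = 5.27e-06), a level of 0.565 times that of sets 2 and 3. Within the groups, KO and WT differed by 0.03 (SE 0.339) in mTERT and -0.23 (SE 0.339) in mTR.

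Set 1 stood apart across the whole array, and Hamp and Ireb2 shared that. Of all probes tested 38.2% passed for set 1 against sets 2 and 3, 17.1% higher and 21.1% lower, while 1 of the 10 genes passed as higher and 1 as lower. The labels give no date or batch beside the set number, so litter, handling and array run cannot be told apart. Pancreas transcripts were on 3 of the 4 arrays of set 1 and on 2 of the other 8. Acute phase genes, 15 of 15 matched, averaged 9.15 to 10.65 in set 1 and 9.01 to 9.41 in sets 2 and 3, with the top value on mTERT WT 1. Sinusoidal endothelium markers had 6 of 12 lower and 1 higher in set 1, and Kupffer cell markers 2 of 14 higher and none lower. The part of these lists in the differences of Hamp and Ireb2 was not tested. Without the 5 arrays with pancreas transcripts, mTR WT 1 is the only array of set 1 left, and the set 1 difference is then that of mTR WT 1 from mTR WT 3. With 1 array on each side this is no test of set 1. Hamp read 11.77 and 9.85 on these arrays, a difference of 1.93. Ireb2 read 8.30 and 8.99, a difference of -0.69, and no longer passed when the spread of the other groups was assumed (limma adjusted p = 0.123).

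**Figure D3:**
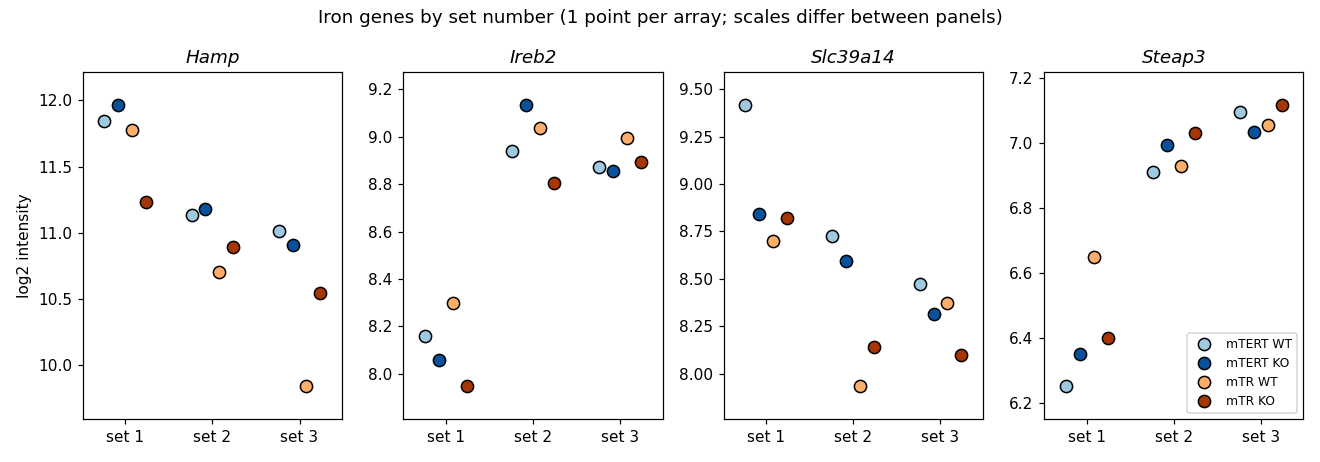
Log2 intensity (y axis) of Hamp, Ireb2, Slc39a14 and Steap3 by set number (x axis), with 1 point per array coloured by group. The 4 arrays of set 1 lie at 11.23 to 11.96 for Hamp and 7.95 to 8.30 for Ireb2, outside the range of sets 2 and 3.

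Of the other 8 genes none passed for set 1. Slc11a2 differed by 0.23 (SE 0.0969, limma adjusted p = 0.0824), and it passed after quantile normalization (0.28, adjusted p = 0.0378) and without mTR KO 1 (0.36, adjusted p = 0.00892). Slc40a1 differed by -0.34 (SE 0.143, adjusted p = 0.0779), passed without mTR WT 1 (-0.54, adjusted p = 0.00848) and changed sign to 0.25 without the 5 arrays with pancreas transcripts. Tfrc differed by -0.17 (SE 0.109, adjusted p = 0.246) and passed without mTERT WT 1 (-0.31, adjusted p = 0.0378). Whether these 3 passed therefore turned on single arrays or on the normalization. Trf, Tfr2, Hfe, Hjv and Hamp2 differed by -0.05, 0.14, -0.04, 0.02 and 0.13.

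Hamp2 followed neither genotype nor set number but the litter. The mTERT KO mice gave 7.05, 6.72 and 8.11, and their WT littermates 6.77, 6.21 and 8.22. The mTR KO mice gave 7.74, 6.98 and 7.25, and their littermates 7.85, 7.18 and 7.12. Both mice of mTERT litter 3 stood above all others, and both of mTERT litter 2 were the lowest pair. Littermates differed by at most 0.51, while litter means ran from 6.46 to 8.17. KO differences were 0.23 (SE 0.479) in mTERT and -0.06 (SE 0.479) in mTR.

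The contrast of mTERT litter 3 with litter 2 was chosen after these values were seen, so for Hamp2 it is a description. The difference was 1.70 (SE 0.148), a 3.26-fold level, and 1.45 to 1.96 when any 1 array was left out. In the mTR line litters 3 and 2 differed by 0.11 (SE 0.148). Hamp itself differed by -0.20 (SE 0.224) between the mTERT litters, below 0 where Hamp2 was above it. Over all probes 59, or 0.292%, passed in this contrast of the mTERT litters. That number moved from 10 to 195 as single arrays were left out, with 10 calls without mTERT WT 3 and 195 without mTERT KO 2.

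Genes of 3 other lists passed in the contrast of mTERT litter 3 with litter 2. That contrast sets 1 litter against 1 litter, and its error comes from differences between littermates. Its p-values therefore do not measure the spread between litters. The litters were picked for their Hamp2 values, so the calls below are descriptions. Id3, a BMP target gene named here after its values were seen, was the 1 gene of 20 in the BMP and SMAD list that passed. It read 6.61 and 6.51 in the KO and WT of mTERT litter 3 and 4.75 to 5.50 on the other 10 arrays, a difference from litter 2 of 1.55 (SE 0.105, limma adjusted p = 0.000404). The other BMP targets did not pass: Id1 differed by 0.36 (adjusted p = 0.361), Id2 by 0.88 (adjusted p = 0.0857), Smad7 by 0.61 (adjusted p = 0.165), Smad6 by -0.06 (adjusted p = 0.919) and Atoh8 by -0.24 (adjusted p = 0.804). The median difference of the 20 genes was -0.04, with 8 above 0, beside -0.01 over all probes. Of 14 Kupffer cell and macrophage markers 13 lay above 0 in this contrast, with a median difference of 0.58. The test called 3 of them higher and none lower. These were the scavenger receptor gene Marco by 1.43 (adjusted p = 0.00778), Cd5l by 0.97 (adjusted p = 0.0404) and the complement gene C1qc by 0.85 (adjusted p = 0.0494). Marco read 6.52 and 6.56 in mTERT litter 3 and 4.21 to 5.30 elsewhere. The whole list of 14 averaged 7.48 and 7.54 on these arrays against 6.71 to 7.28 on the others, and its part in the Hamp2 difference was not tested. Mcm6, a replication gene, was the 1 of 12 proliferation markers that passed (0.68, adjusted p = 0.0488), and that list averaged 4.90 and 4.78 there against 4.56 to 4.69 elsewhere. Marco, Cd5l, C1qc and Mcm6 were also named after their values were seen. Sinusoidal endothelium markers averaged 7.48 and 7.42 in litter 3, 7.46 on mTERT KO 2 and 7.03 to 7.24 on the others. The pancreas markers of this litter were at 4.03 and 3.86, the level of the arrays without pancreas transcripts, while mTERT WT 2, on the other side of the contrast, carried them at 9.32. Skeletal muscle markers were above 0 in this contrast for 12 of 12 genes, with a median of 1.54 and none past the test, and averaged 6.74 on mTERT WT 3 but 3.98 on mTERT KO 3.

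**Figure D4:**
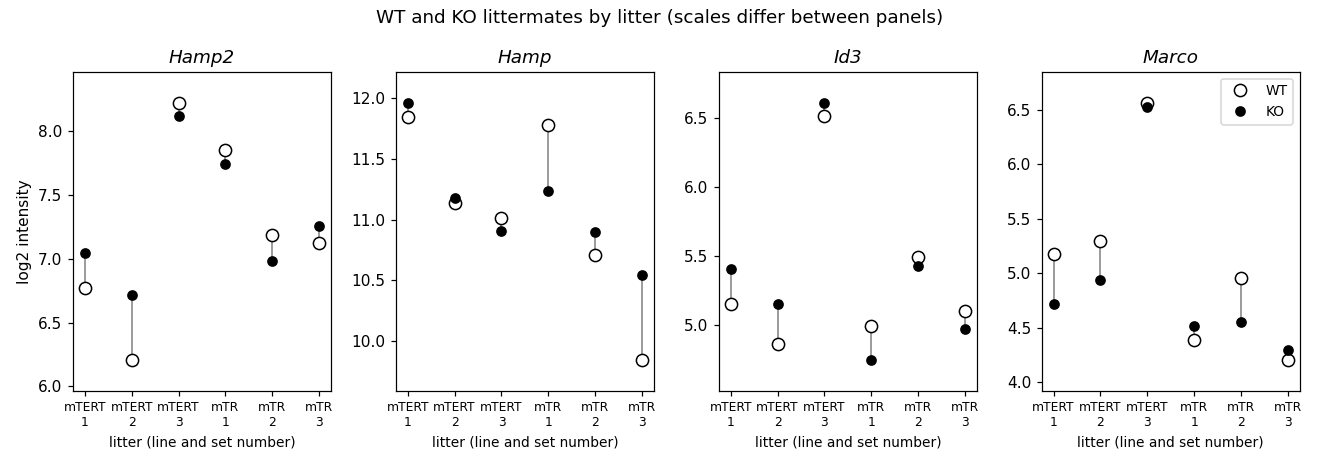
Log2 intensity (y axis) of Hamp2, Hamp, Id3 and Marco in the 6 litters (x axis, line and set number), with open points for WT and filled points for KO joined within a litter. Both mice of mTERT litter 3 are highest for Hamp2 (8.22 and 8.11), Id3 and Marco, but not for Hamp.

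Slc40a1, the iron exporter and the target of hepcidin, also varied between litters. The mTERT KO mice gave 9.80, 10.18 and 10.56, and their WT littermates 9.47, 10.05 and 10.45, so both mice of mTERT litter 3 again held the top values. The mTR KO mice gave 9.52, 9.68 and 9.90, and their littermates 10.02, 9.78 and 9.77. The KO differences were 0.19 (SE 0.238, interval -0.33 to 0.71) in mTERT and -0.16 (SE 0.238, interval -0.68 to 0.37) in mTR. Between mTERT litters 3 and 2 it differed by 0.39 (SE 0.145), which did not pass (limma adjusted p = 0.367). Ferroportin is abundant in Kupffer cells as well as hepatocytes, and the part of their markers in this difference was not tested.

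In the wider iron pathways no gene of any list passed for KO against WT in either line. Among genes of import, 0 of 14 passed, and the median difference was 0.01 in mTERT and -0.01 in mTR. Steap3, the ferrireductase of the transferrin cycle, differed by 0.04 (SE 0.261) and -0.03 (SE 0.261). Slc39a14, which imports iron not bound to transferrin, differed by -0.29 (SE 0.278) and 0.02 (SE 0.278). Among storage and export genes 0 of 13 passed: the ferritin subunits Fth1 (0.01 and -0.00) and Ftl1 (0.09 and -0.01), and Cp, the ferroxidase ceruloplasmin (0.02 and 0.02), stayed within 0.1 of 0 in mTERT and mTR. Of iron sensing genes 0 of 14 passed. Aco1, which encodes IRP1, differed by -0.02 and 0.05, and Fbxl5, whose product marks IRP2 for degradation, by 0.04 and -0.10.

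In the BMP and SMAD list 0 of 20 passed in either line. The genes of this list in mTR had a median difference of -0.07, with 2 of 20 above 0, beside a median of -0.01 over all probes. The share of all probes above 0 was not worked out. The list averaged 6.46 on mTR KO 1, which carried pancreas transcripts, and 6.66 on both mTR KO 2 and mTR KO 3. In mTR WT it averaged 6.65 to 6.75. Bmp2, a ligand made by sinusoidal endothelium, was lower in every mTR KO array than in any mTR WT array (-0.24, SE 0.163), without passing, and was 0.14 higher in mTERT KO. Of the 20 genes 2 had mTR KO wholly below mTR WT, and the share of all probes so placed is not given here. Bmp6, the other main ligand of hepcidin control, differed by 0.10 and 0.11. Tmprss6, the protease that cleaves hemojuvelin, differed by 0.10 and -0.01, and the SMAD targets Id1 and Smad7 by -0.14 and 0.00 and by -0.07 and -0.04. Fam132b, which encodes the erythroid hormone erythroferrone, differed by 0.05 and -0.02. The list of IL-6 and STAT3 control had 0 of 9 past the test in both lines. Of 15 acute phase genes none passed in either line. In mTERT KO 0 of the 15 lay above 0, with a median difference of -0.29, and in mTR KO 9 did, with a median of 0.02. mTERT WT 1, at 10.65, held the highest mean of this list. Saa1 differed by -1.34 (SE 0.858) in mTERT and 0.23 (SE 0.858) in mTR. Of genes from the import and the storage lists that inflammation also raises, Lcn2, a siderophore-binding protein, differed by -1.21 (SE 0.746) and 0.47 (SE 0.746). Hp, haptoglobin, differed by -0.34 (SE 0.151, interval -0.67 to -0.01) in mTERT, with a limma adjusted p of 1.00 and an unadjusted p of 0.0469, and by 0.02 (SE 0.151) in mTR. Heme synthesis had 0 of 11 past the test, with its first enzyme in liver, Alas1, at 0.46 (SE 0.495) and -0.40 (SE 0.495), and Alas2, its erythroid form, at -0.06 in both lines. Hmox1, which breaks heme down, differed by 0.03 and -0.09, Hpx, the heme carrier hemopexin, by -0.18 and 0.05, and Glrx5, the 1 named gene of an iron-sulfur list with 0 of 13 past the test, by 0.07 and -0.01.

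For set 1, the counts below stand beside 17.1% of all probes called higher and 21.1% called lower, and several lie near those shares. Of 14 import genes 5 rose and 5 fell, among them Slc39a14 by 0.61 (SE 0.1, limma adjusted p = 0.000616) upward and Steap3, which differed by -0.61 (SE 0.0745, adjusted p = 8.18e-05). Storage and export genes had 3 of 13 higher, with Hmox1 at 0.56 and Hp at 0.25, and 2 lower, Cp at -0.23 and Fth1 at -0.19, while Ftl1 was at -0.01 and did not pass. Beside Ireb2, iron sensing genes had 2 of 14 higher and 2 lower, and Aco1 (-0.15, adjusted p = 0.122) and Fbxl5 (-0.11, adjusted p = 0.27) did not pass. In the BMP and SMAD list 6 of 20 fell and 1 rose. The genes that fell included the receptor genes Acvr2a (-0.72, adjusted p = 1.3e-05), Bmpr1a (-0.40) and Bmpr2 (-0.18), and the target gene Id2 (-0.74). Furin, the protease that cuts prohepcidin and hemojuvelin, rose by 0.56. Of these 7 genes none is in the fixed list of names, and they were named after their values were seen. Bmp2 (-0.25), Bmp6 (0.01), Tmprss6 (-0.03), Id1 (0.19), Smad7 (-0.08) and Fam132b (-0.10) did not pass.

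Against the same shares of 17.1% higher and 21.1% lower over all probes, 2 of 9 genes in the IL-6 and STAT3 list rose, the receptor genes Il6ra by 0.86 (SE 0.163, limma adjusted p = 0.00158) and Il22ra1 by 0.22, and 1 fell, the kinase gene Jak2 (-0.71, adjusted p = 3.99e-06), all 3 also named after the fact. Acute phase genes had 5 of 15 higher and none lower. Saa1 (0.75, adjusted p = 0.34) did not pass, while Lcn2 of the import list rose by 1.41 (SE 0.364, adjusted p = 0.00954). Heme synthesis had 4 of 11 higher and none lower, including Alas1 by 0.84 (SE 0.269, adjusted p = 0.0278). Of 13 genes of mitochondrial iron and iron-sulfur clusters 3 rose and 3 fell. Alas2 rose by 0.20 and Glrx5 by 0.19, and Hpx was at 0.05 and did not pass.

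The genes whose probes followed Tfrc most closely over the 12 arrays, among 15522 compared, were Brdt (Pearson r = 0.873), Septin6 (0.852), Ears2 (0.852), Lrrc59 (0.850) and Gm10037 (0.828). After removal of the group means the same correlations were 0.738, 0.700, 0.566, 0.732 and 0.700, so part of each came from mice within groups. For Hamp they were Htra2 (0.942), Arrb2 (0.917), Gpr183 (0.917), Myo9b (0.913) and Prmt1 (0.909), and 0.956, 0.906, 0.922, 0.928 and 0.897 after removal of the group means. These 12 points include pairs of littermates and a set that stands apart on the whole array, so the values are descriptive. Between Tfrc and Slc11a2, the 2 genes apart in mTR, r was 0.34, and -0.333 after removal of the group means. Hamp and Hamp2 had an r of -0.0398 over the same 12 arrays.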

How the data were processed

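Total RNA from 12 mouse livers was extracted with Trizol, cleaned on RNeasy columns, amplified in 1 round with random primers and biotin-labelled for Affymetrix arrays, per the labels' protocols. The deposited values are log2 intensities, with the base read as 2 from their range (2.62 to 13.83). Per the submitters' processing notes, GCOS 1.4, Affymetrix Expression Console and PLIER were used, with roles and normalization not given in the sources used here. The number of arrays limits the precision.

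Of 28853 probes 21789 had 1 gene symbol. Tests covered the 20197 probes whose mean reached the 30th percentile (3.898). One limma 3.58.1 fit (R 4.3.3) of the 4 group means with eBayes gave the KO comparisons, and a term for set 1 or for litters gave the others. Two-sided p-values were adjusted by Benjamini and Hochberg's method (threshold 0.05), and the script was tested on simulated data first. After removal of group means, the correlation between KO and WT of sets 1, 2 and 3 was 0.692, 0.135 and 0.623 (mTERT) and 0.458, 0.151 and 0.552 (mTR), and the series text names littermates. KO 2 arrays correlated more with WT 3 (0.416 and 0.464).

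The genes and lists were chosen with earlier results of these data known. Named genes were all 10 iron handling genes, 21 companion genes listed by role, list genes past a KO test, and the 5 genes most like Tfrc and Hamp. Alternatives were quantile normalization, no filter, trend and robust eBayes, the litter as a block, sets 2 and 3 only, each array left out and, added after seeing the data, removal of arrays with pancreas transcripts. For the comparison of wild types the block was the set number.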

Additional observations from a re-analysis of the deposited data

How the results depend on the processing

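With the litter as a replicate block, the number of probes called stayed at 0 in both KO comparisons and their difference. In the comparison of wild types the block was the set number instead, and the number called also stayed at 0. No call on an iron handling gene changed with either block. At an unadjusted p under 0.05 limma with the litter block gave 1037 probes in mTERT, 851 in mTR and 1264 for the difference. Without a block it gave 293 for the difference and 525 between wild types. Sets 2 and 3 alone gave 1 call in mTERT, 1 in mTR and 1 between mTR litters 3 and 2. Without the 5 arrays with pancreas transcripts the calls were 72 in mTERT, 38 for the difference between KO effects, 97 between wild types and 272 for set 1. mTERT WT 3, which carried muscle transcripts, was then the only mTERT WT array and mTR WT 1 the only array of set 1, and each was assumed to vary like the other groups. None of the 72 was an iron handling gene, and Ireb2 in set 1 lost its call (-0.69). Trend and robust settings gave 166 calls between mTERT litters 3 and 2. Leaving out single arrays gave 0 to 41 calls in mTERT (41 without mTERT WT 2, 1 without mTERT WT 1), 0 to 30 for the difference, 0 to 42 between wild types (both highest without mTERT WT 2), 10 to 195 between mTERT litters and 0 to 2 between mTR litters.

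Differences that changed sign were all uncalled. Under quantile normalization these were Hamp (-0.0116), Hfe (-0.0346) and Ireb2 (-0.0095) in mTERT, Trf in mTR (-0.0597) and Hfe in set 1 (0.021). With sets 2 and 3 alone they were Hamp (-0.0346) and Trf (0.0055) in mTERT, and Tfr2 (0.0175) and Slc40a1 (0.0163) in mTR. Without the arrays with pancreas transcripts they were Tfr2 (0.0092), Hamp2 (-0.81) and Slc40a1 (-0.08) in mTERT, Hamp (-0.0907) and Ireb2 (0.202) in mTR, and Hjv (-0.146) and Slc40a1 (0.253) in set 1. Over single arrays left out, mTERT differences ran from -0.0471 to 0.0655 for Tfr2, -0.292 to 0.272 for Hamp, -0.201 to 0.805 for Hamp2, -0.0426 to 0.0686 for Hfe, -0.0135 to 0.0941 for Hjv, -0.0691 to 0.42 for Slc40a1, -0.236 to 0.0637 for Slc11a2, -0.0774 to 0.0015 for Trf and -0.223 to 0.338 for Ireb2. In mTR they ran from -0.154 to 0.0512 for Tfr2, -0.35 to 0.615 for Hamp, -0.269 to 0.171 for Hamp2, -0.0202 to 0.0619 for Trf and -0.466 to 0.0723 for Ireb2. In set 1 they ran from -0.0637 to 0.366 for Hamp2 and -0.0407 to 0.0749 for Hjv, and between mTR litters from -0.0336 to 0.252 for Hamp2. The cause of these changes was not tested. Another probe per gene could not be tried, since each gene had 1.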
